A study of Caenorhabditis elegans with 60 samples.

Results

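The genes described here make, recycle and use glutathione in Caenorhabditis elegans. They were chosen by name from the WBcel235 annotation: every glutathione transferase gene (gst-, gsto- and gstk-), every glutathione peroxidase gene (gpx-), and gcs-1, gss-1 and gsr-1, which make and recycle glutathione. The annotation names 60 such genes, and 35 of them have a row among the 10298 genes of the deposited table. All 35 passed the filter on low values, a value of at least 5 in at least 4 libraries. gst-8 did so through the groups in which it was high, as set out below. The 35 are 3 of 3 genes of synthesis and recycling, 5 of 8 peroxidases, 1 of 3 omega transferases, 2 of 2 kappa transferases, 2 of 2 zeta transferases and 22 of 42 other gst genes. The 25 others, among them gst-2, gst-3, gst-9, gsto-2, gpx-4 and gpx-6, have no row and were not analysed here.

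The study asked how the messenger RNA of developing worms changes with the concentration of hexafluoropropylene oxide dimer acid (HFPO-DA), a perfluoroalkyl ether carboxylic acid from fluoropolymer manufacture. Each library came from a well of about 1000 pooled whole worms of the wild-type strain N2 (Bristol), which were synchronised at the first larval stage and exposed for 48 h in S Medium with Escherichia coli HB101 as food. The 14 exposed groups received HFPO-DA at 4 g/L, 2 g/L, 1 g/L or one of 11 concentrations between 0.0125 and 500 mg/L, and the control group received the medium without it. Each of the 15 groups had 4 wells on 12-well plates. The labels name separate wells and no separate worm cultures, so the p-values below measure the spread between wells. In the main fit that spread also carries a factor per gene and replicate number that the deposited values hold. The deposited values are a normalised signal per gene, in which a gene with 0 reads still has a value, about 2.5 for gst-8 in the controls. The value at 0 reads differs by gene, replicate number and library. The reads behind each value could be recovered. Libraries held 462117 to 4522107 reads (median 1475652.5), with a median of 890603 reads at 4 g/L, 1569163 at 2 g/L and 1472382 in the controls.

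Glutathione is a tripeptide that cells hold at high concentration as a reducing agent. Glutamate-cysteine ligase (gcs-1) joins glutamate to cysteine, the rate-limiting step of its synthesis, glutathione synthetase (gss-1) adds glycine, and glutathione reductase (gsr-1) returns the oxidised form to the reduced one with NADPH. Glutathione transferases couple it to electrophilic compounds so that they can be exported, and glutathione peroxidases use reducing equivalents to remove peroxides. In worms many of these genes are expressed in the intestine, and several are targets of the stress transcription factor SKN-1, for which gst-4 is the usual reporter.

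At 4 g/L, 11 of the 35 genes were higher than in the controls and 5 were lower, and 19 were not called (limma, adjusted p under 0.05 over all genes). Over all 10293 genes tested the same rule called 14.7% higher and 13.7% lower, 28.5% in either direction. By role, 7 of the 22 other gst genes rose and 2 fell, 3 of the 5 peroxidases rose and none fell, the omega transferase rose, 1 of the 2 zeta genes fell, neither kappa gene was called, and 2 of the 3 genes of synthesis and recycling fell. The median log2 fold change of the 35 was -0.06, beside -0.05 for all genes tested. At 2 g/L 2 genes rose and 1 fell, where the rule called 0.311% of all genes higher and 0.175% lower. At the 12 concentrations of 1 g/L and below no member was called.

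**Figure D1:**
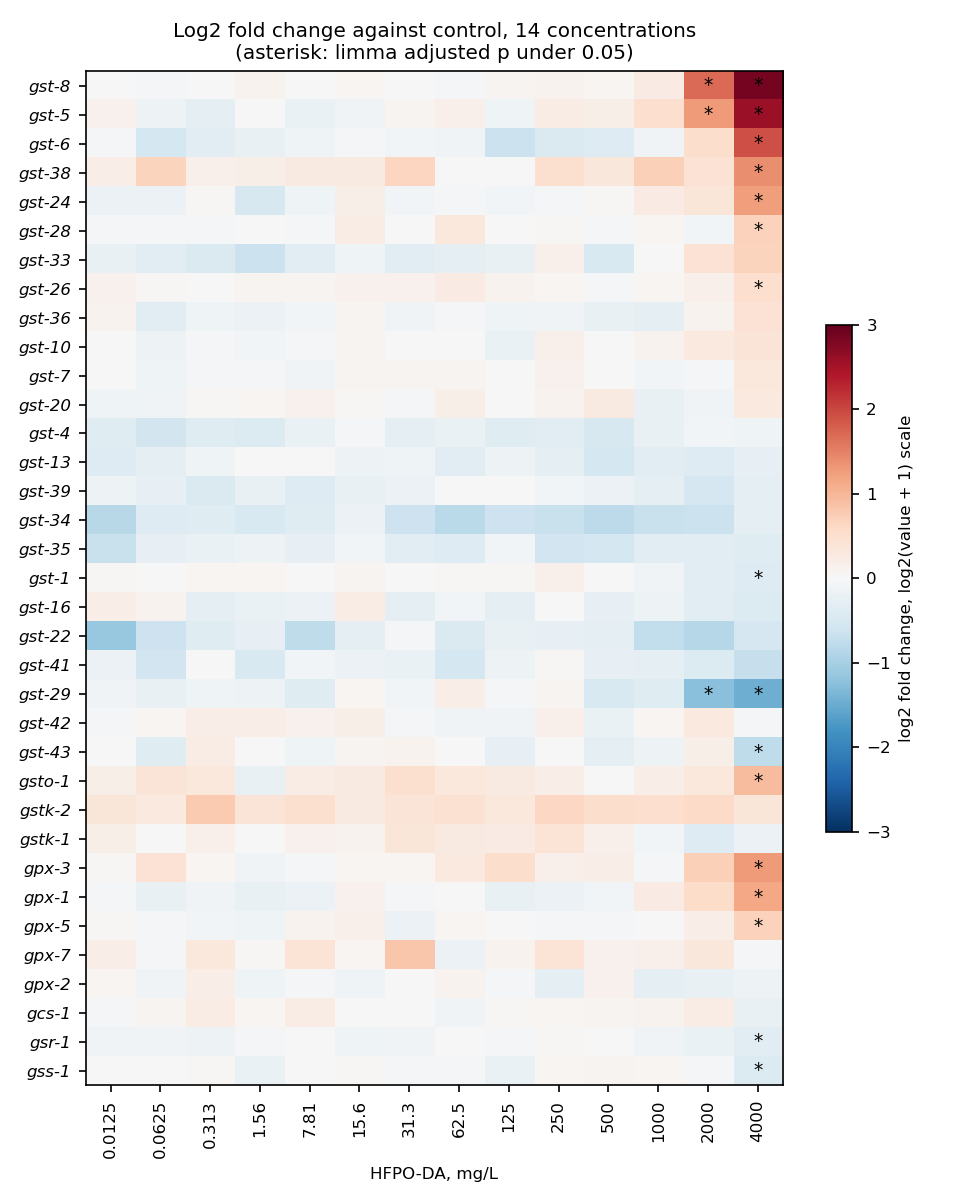
Log2 fold change of each of the 35 genes (rows, grouped by role) at each of the 14 concentrations of HFPO-DA against the control (columns, mg/L, low to high), with n = 4 libraries in each group. An asterisk marks a limma adjusted p under 0.05: 16 genes have one at 4000 mg/L, 3 at 2000 mg/L and none at lower concentrations.

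On the log2(value + 1) scale the largest rises were in gst-8, gst-5 and gst-6, transferases of the large nematode family that is related to the sigma class. gst-5 (CELE_R03D7.6, chromosome II, 10950352 to 10951603, plus strand, WBcel235) had values of 376, 338, 465 and 474 in the 4 g/L libraries, against 74.1, 45.8, 95.1 and 63.3 in the controls. Each 4 g/L library lay far above each control. The group means were 413 ± 66.8 at 4 g/L and 69.6 ± 20.6 in the controls (SD, n = 4 each), a log2 fold change of 2.59 ± 0.18 (SE), with a limma adjusted p = 4.68e-17. The 4 g/L libraries held 1046 reads of it and the controls 247, which gives a ratio of 6.34 after scaling for depth, with an exact binomial 95% counting interval of 5.51 to 7.31. Its values at 2 g/L were 162, 186, 129.7 and 184, again above every control, with a log2 fold change of 1.27 ± 0.18 (SE), with a limma adjusted p = 2.33e-06. At 1 g/L the values of gst-5 were 99.0, 101, 75.6 and 113, which overlapped the controls and were not called.

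gst-8 (CELE_F11G11.1, II, 4883712 to 4884599, plus strand) had no read in any control library. Its 4 g/L libraries held 15, 10, 12 and 21 reads and deposited values of 26.5, 22.5, 24.3 and 26.5, against 2.59, 2.45, 2.52 and 2.69 in the controls. With 3 reads taken as the floor for the whole control group, gst-8 was at least 28.9-fold higher at 4 g/L (limma adjusted p = 1.24e-20). That ratio leaves out the counting error of the reads themselves, and the exact binomial 95% counting interval of the scaled ratio, 58 reads against 0, starts at 22.8. The 2 g/L libraries had 5, 12, 10 and 10 reads of gst-8 and values of 7.41, 13.6, 11.2 and 11.2, at least 11.1-fold higher than in the controls, with a counting interval that starts at 8.58 (limma adjusted p = 1.94e-11). At 1 g/L 3 of the 4 libraries held a read of gst-8, 4 reads in all, and in the 44 exposed libraries at 0.5 g/L and below 6 held one, 8 reads in all. The fit takes the spread of gst-8 over all groups, most of which lie at or near 0 reads. All limma p-values of gst-8 therefore rest largely on libraries at that floor and do not measure the spread between wells that hold its reads. gst-8 also passed the filter on low values through its 2 and 4 g/L libraries. Its value was at most 4.06 in the exposed libraries at 0.5 g/L and below.

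gst-6 (CELE_F11G11.3, II, 4879891 to 4881105, plus strand) had values of 125, 94.6, 94.5 and 127 at 4 g/L, against 32.9, 17.8, 36.9 and 28.4 in the controls. The groups did not overlap, and the log2 fold change was 1.92 ± 0.27 (SE, limma adjusted p = 6.07e-07). Its values at 2 g/L were 45.3, 34.5, 30.4 and 57.0, which overlapped the controls, and its log2 fold change of 0.52 ± 0.27 was not called (limma adjusted p = 0.729).

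4 further gst genes rose at 4 g/L. gst-24 (CELE_F37B1.1, II, 13610443 to 13611366, minus strand) had values of 50.7, 24.9, 57.3 and 27.0 at 4 g/L, against 16.1, 14.1, 15.3 and 15.1 in the controls. The 4 g/L wells split into a higher and a lower pair, all above the controls, and the log2 fold change was 1.25 ± 0.25 (SE, limma adjusted p = 0.000245). gst-38 (CELE_F35E8.8, V, 15915162 to 15916070, minus strand), a gene of few reads, had values of 14.2, 9.61, 9.16 and 14.2 against 2.68, 6.79, 2.96 and 3.53 in the controls. Its 4 g/L libraries held 25 reads and its controls 8, a scaled ratio of 4.68 (95% counting interval 2.04 to 12.0), and its log2 fold change was 1.40 ± 0.29 (SE, limma adjusted p = 0.000334). gst-28 (CELE_Y53F4B.31, II, 15166194 to 15167577, minus strand) averaged 156 ± 26.1 at 4 g/L and 97.1 ± 16.0 in the controls (SD, n = 4 each), a log2 fold change of 0.68 ± 0.16 (SE), with a limma adjusted p = 0.00143. gst-26 (CELE_Y53F4B.29, II, 15163817 to 15164553, minus strand) averaged 175 ± 17.1 at 4 g/L and 123 ± 9.59 in the controls, a log2 fold change of 0.51 ± 0.16 (SE), with a limma adjusted p = 0.0155. Every 4 g/L library of gst-28 and gst-26 lay above every control. In the 44 exposed libraries at 0.5 g/L and below, gst-28 reached 145.5 and gst-26 reached 179. Only replicate 4 at 4 g/L lay above these values, at 195 for gst-28 and 200.8 for gst-26. The call of gst-26 was lost without 4 g/L replicate 4 (limma adjusted p = 0.0782) and without control replicate 2 (limma adjusted p = 0.0549).

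**Figure D2:**
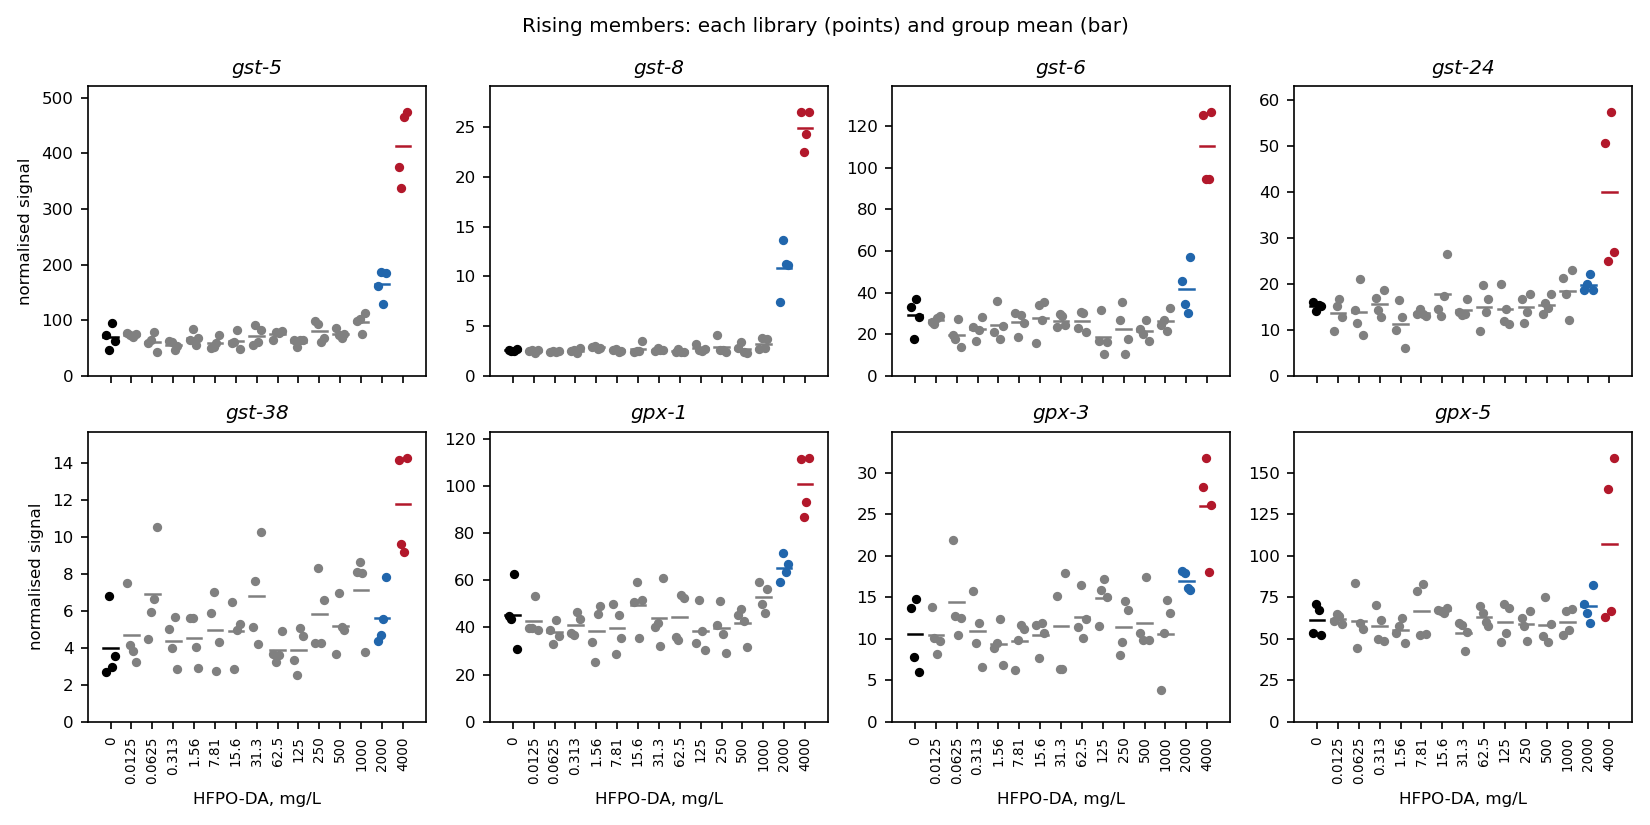
Deposited normalised signal of 8 members that rose at 4 g/L, with each library as a point, the group mean as a bar, and HFPO-DA in mg/L on the horizontal axis (evenly spaced steps, control at 0). gst-5 reaches 338 to 474 at 4000 mg/L and 129.7 to 186 at 2000 mg/L, gst-8 leaves the level of 0 reads at 2000 mg/L, and gpx-5 splits at 4000 mg/L into a pair of wells at 62.8 and 67.0 and a pair at 140.4 and 159.

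2 gst genes fell. gst-29 (CELE_Y53F4B.32, II, 15168538 to 15169861, minus strand) had values of 13.3, 18.4, 3.68 and 10.6 at 4 g/L, against 24.0, 39.0, 34.8 and 23.3 in the controls. The groups did not overlap, and the log2 fold change was -1.46 ± 0.27 (SE, limma adjusted p = 8.62e-05), with 23 reads at 4 g/L and 113 in the controls. The 2 g/L values of gst-29 lay close together at 12.0, 11.4, 12.3 and 11.6, all below the controls, with a log2 fold change of -1.25 ± 0.27 (SE), with a limma adjusted p = 0.00800. That call at 2 g/L was lost without control replicate 2 (limma adjusted p = 0.0877) and without control replicate 3 (limma adjusted p = 0.0563). gst-1 (CELE_R107.7, III, 9059331 to 9060181, plus strand), a pi-class transferase, had values of 312, 305, 303 and 252 at 4 g/L, against 355, 428, 385 and 368 in the controls. It fell by 0.39 ± 0.10 on the log2 scale (SE, limma adjusted p = 0.00316), and the groups did not overlap. gst-1 averaged 301 ± 28.1 at 2 g/L, with all 4 libraries below the controls at 384 ± 31.7 (SD, n = 4 each), and was not called (limma adjusted p = 0.124).

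gst-10 and gst-4 are the transferases most studied in worms. gst-10 (CELE_Y45G12C.2, V, 2561690 to 2564645, plus strand), known for conjugating the lipid peroxidation product 4-hydroxynonenal, had values of 332, 305, 290.3 and 359.7 at 4 g/L, against 246, 236, 278 and 219 in the controls. The groups did not overlap, and the log2 fold change of 0.39 ± 0.16 just missed the threshold (limma adjusted p = 0.0511). It was called when a term for sets of 12 consecutive sample numbers was fitted (limma adjusted p = 0.0192). gst-4 (CELE_K08F4.7, IV, 10142225 to 10143099, plus strand) had values of 33.1, 38.7, 23.7 and 34.5 at 4 g/L, against 67.3, 23.3, 36.4 and 25.9 in the controls. The 4 g/L libraries lay within the spread of the controls, with a log2 fold change of -0.12 ± 0.29 (SE), with a limma adjusted p = 0.782. Its direction rested on single libraries: the log2 fold change ran from -0.31 to 0.18 over fits that left out 1 library each, 0.18 without control replicate 1, and was called in none. Its values at 2 g/L were 25.3, 34.1, 27.6 and 48.5. gst-33 (CELE_C02A12.1, V, 3467451 to 3468562, minus strand) held 17 reads at 4 g/L and 12 in the controls and had a log2 fold change of 0.67 ± 0.28 (limma adjusted p = 0.0582). gst-7 (CELE_F11G11.2, II, 4882062 to 4883358, plus strand) averaged 305 ± 30.0 at 4 g/L and 246 ± 50.4 in the controls, with a log2 fold change of 0.33 ± 0.14 (limma adjusted p = 0.0738).

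The smaller transferase classes held 5 measured genes. gsto-1 (CELE_C29E4.7, III, 7945542 to 7947018, minus strand), the measured gene of the omega class, whose members act as thiol transferases and dehydroascorbate reductases, had values of 29.1, 38.4, 18.2 and 28.4 at 4 g/L, against 12.1, 18.2, 19.0 and 8.79 in the controls. One 4 g/L library lay within the range of the controls, and the log2 fold change was 0.94 ± 0.25 (SE, limma adjusted p = 0.00460), lost in a fit of the 2 groups alone (limma adjusted p = 0.0616). gst-43 (CELE_Y71F9AL.5, I, 2901325 to 2903006, plus strand), a relative of the zeta-class enzyme that isomerises maleylacetoacetate in tyrosine breakdown, had values of 10.1, 8.58, 7.70 and 13.9 at 4 g/L, against 21.0, 19.4, 17.8 and 12.8 in the controls. Its log2 fold change was -0.77 ± 0.21 (SE, limma adjusted p = 0.00603). The call was lost in a fit of the 2 groups alone (limma adjusted p = 0.0831), with voom (0.0643) and with voom and the term for sets (0.0587). The 2 g/L mean of gst-43 was 20.1 ± 2.89, not below that of the controls, so that the step between 2 and 4 g/L was larger than the difference from the controls. gst-42, the other zeta gene, had a log2 fold change of -0.07 ± 0.21 at 4 g/L, and the kappa genes gstk-1 and gstk-2, of a class found in mitochondria and peroxisomes, had -0.18 ± 0.17 and 0.37 ± 0.34 (SE, none called).

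Of the peroxidases, gpx-1, gpx-3 and gpx-5 rose at 4 g/L. gpx-1 (CELE_F26E4.12, I, 9780349 to 9781413, plus strand), a homologue of the mammalian phospholipid hydroperoxidase GPX4, had values of 111, 87.0, 93.4 and 112 at 4 g/L, against 44.9, 43.6, 62.5 and 30.6 in the controls. All 4 g/L libraries lay above the controls, and the log2 fold change was 1.17 ± 0.21 (SE, limma adjusted p = 3.24e-05). Its values at 2 g/L were 59.2, 71.7, 63.7 and 67.0, in part above the controls, and its log2 fold change of 0.56 ± 0.21 was not called (limma adjusted p = 0.387). gpx-3 (CELE_C11E4.2, X, 9587942 to 9588879, plus strand) had values of 28.3, 31.8, 18.0 and 26.2 at 4 g/L, against 13.7, 7.85, 14.8 and 6.02 in the controls. Those groups did not overlap, and the log2 fold change was 1.27 ± 0.30 (SE, limma adjusted p = 0.00166). gpx-5 (CELE_C11E4.1, X, 9584668 to 9586344, plus strand) had values of 62.8, 140.4, 67.0 and 159 at 4 g/L, against 53.5, 71.0, 67.2 and 52.3 in the controls. 2 of its 4 g/L libraries were about as low as the controls. Its log2 fold change was 0.70 ± 0.20 (SE, limma adjusted p = 0.00760), and the call was lost without 4 g/L replicate 2 (limma adjusted p = 0.0562) or replicate 4 (limma adjusted p = 0.104), and in a fit of the 2 groups alone (limma adjusted p = 0.108). gpx-2 and gpx-7 had log2 fold changes of -0.14 ± 0.18 and -0.06 ± 0.36 and were not called.

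None of the 3 genes of synthesis and recycling was called higher at 4 g/L, and 2 were called lower. gss-1 (CELE_M176.2, II, 9414563 to 9416431, minus strand) had values of 87.7, 68.1, 104 and 64.7 at 4 g/L, against 84.6, 109, 124 and 109 in the controls. Its groups overlapped, and it fell by 0.40 ± 0.13 on the log2 scale (SE, limma adjusted p = 0.0169). gsr-1 (CELE_C46F11.2, III, 3650907 to 3652958, plus strand) had values of 279.6, 302, 277 and 261 against 301, 369.6, 333 and 385 in the controls. One of its 4 g/L libraries reached the lowest control, and gsr-1 fell by 0.30 ± 0.10 on the log2 scale (SE, limma adjusted p = 0.0224). Both calls rest on few wells. That of gss-1 was lost without 4 g/L replicate 2, without 4 g/L replicate 4 and without control replicate 3 (limma adjusted p = 0.0746, 0.122 and 0.0782), and that of gsr-1 without 4 g/L replicate 4, control replicate 2 and control replicate 4 (limma adjusted p = 0.0885, 0.0770 and 0.0961). In a fit of the 2 groups alone neither was called (limma adjusted p = 0.148 for gss-1 and 0.0922 for gsr-1), and with voom gss-1 was not (0.0766). gcs-1 (CELE_F37B12.2, II, 9035562 to 9038301, minus strand) had values of 53.7, 40.8, 39.6 and 33.4 at 4 g/L, against 40.9, 53.7, 47.9 and 51.6 in the controls. Those ranges overlapped, and the log2 fold change of -0.22 ± 0.17 was not called (limma adjusted p = 0.321). gcs-1 averaged 57.0 ± 6.89 at 2 g/L and had a log2 fold change of 0.23 ± 0.17 (limma adjusted p = 0.849).

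**Figure D3:**
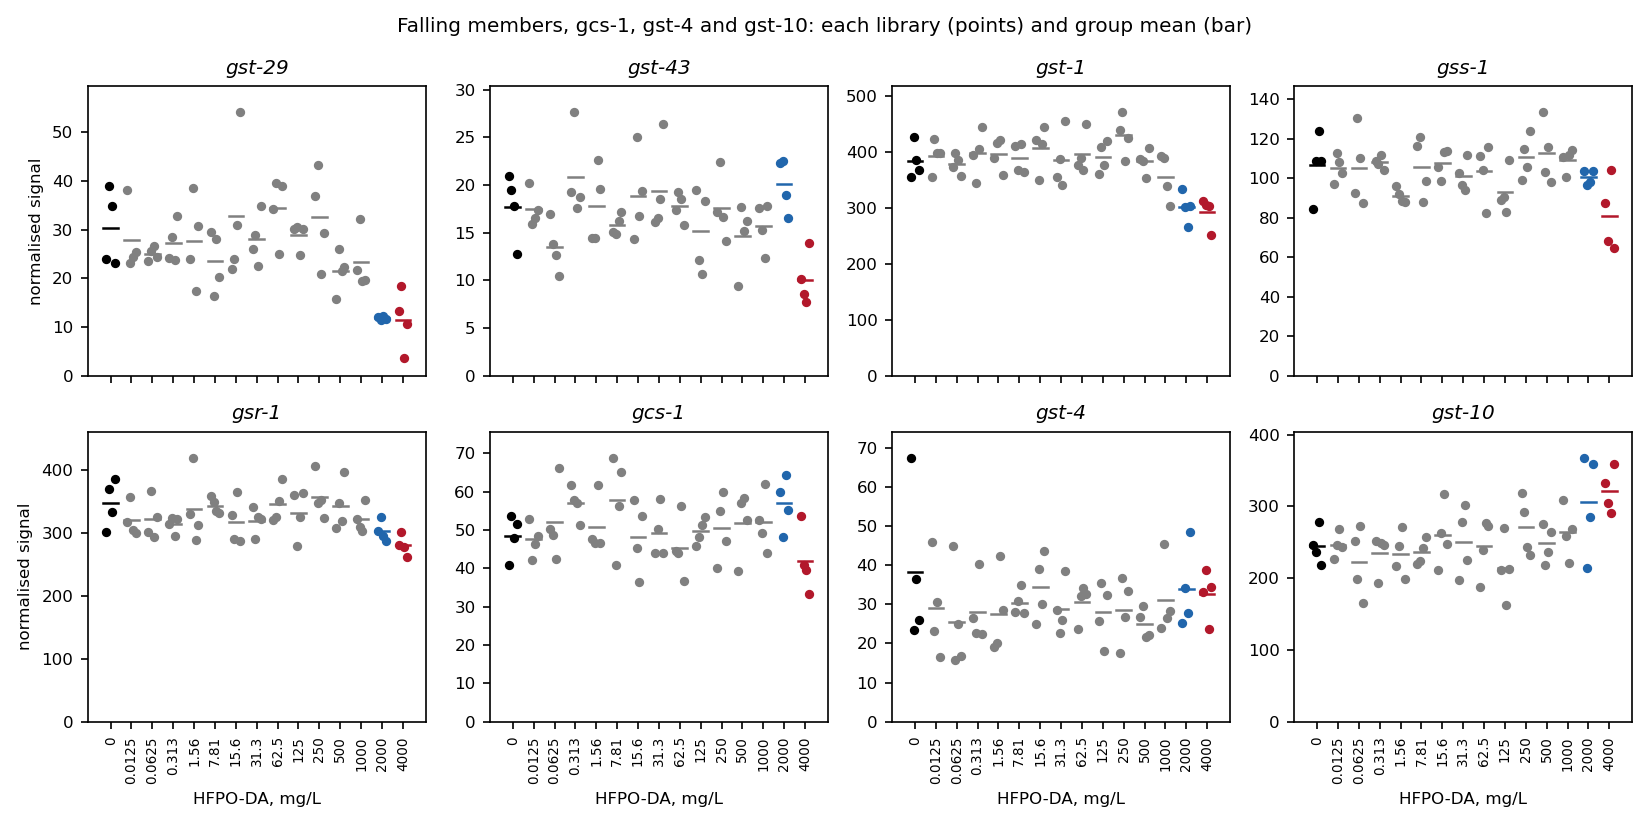
Deposited normalised signal of the 5 members that fell at 4 g/L, and of gcs-1, gst-4 and gst-10, which were not called, drawn as in the plot of rising members. gst-29 sits at 11.4 to 12.3 at 2000 mg/L and 3.68 to 18.4 at 4000 mg/L, below all controls, while gst-4 spans 23.7 to 38.7 at 4000 mg/L within its control range.

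The 14 members not described singly had log2 fold changes at 4 g/L between -0.69 (gst-41) and 0.42 (gst-36), and none was called. Counted by ranges, 10 of the 35 genes had every 4 g/L library above every control and 3 had every one below, where 8.11% and 9.68% of all genes did. These counts were 4 and 5 at 2 g/L, where 2.1% and 2.11% of all genes did, and at 1 g/L 1 and 0, where 1.08% and 1.11% did. All of these counts use the controls alone. Exposed libraries at 0.5 g/L and below reached into the 4 g/L range for gst-24 (26.5), gst-26 (179), gst-28 (145.5), gst-38 (10.5), gst-10 (319) and gpx-3 (21.9). They also did for gst-29 (down to 15.8), but not for gst-5, gst-8, gst-6, gpx-1 or gst-1.

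**Figure D4:**
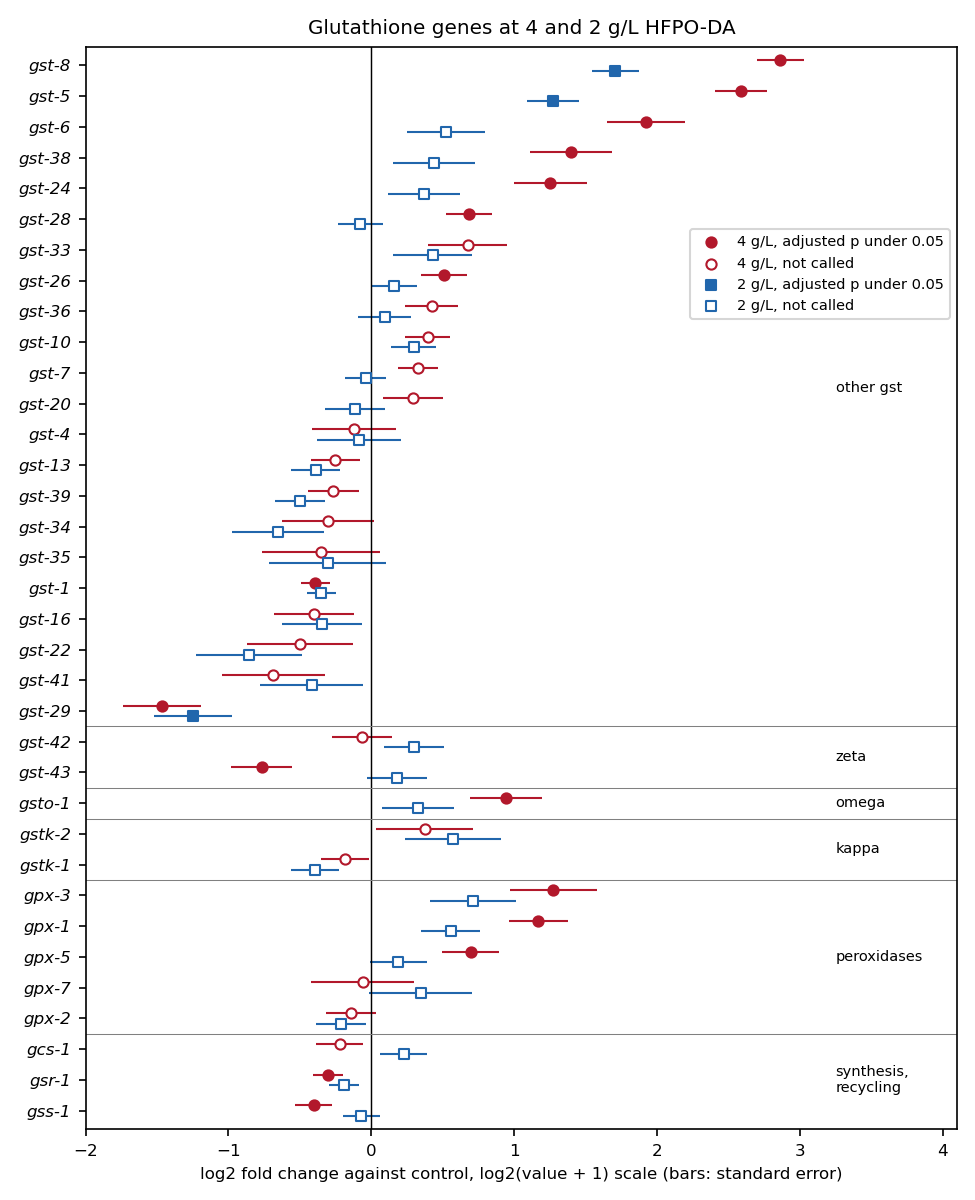
Log2 fold change against the control, with its standard error, of the 35 genes at 4 g/L (red circles) and 2 g/L (blue squares), grouped by role and filled where the limma adjusted p was under 0.05. gst-8 and gst-5 lie farthest right at both concentrations (2.86 and 2.59 at 4 g/L) and gst-29 farthest left (-1.46 at 4 g/L), and the 3 genes of synthesis and recycling lie left of 0 at 4 g/L.

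The steps between the highest concentrations were tested directly. From 2 to 4 g/L, 7 of the 35 genes were higher at 4 g/L and 1 was lower, where 4.59% of all genes were called higher and 4.06% lower. The rising genes were gst-5 (1.31 ± 0.18), gst-8 (1.16 ± 0.17), gst-6 (1.40 ± 0.27), gst-28 (0.76 ± 0.16), gst-24 (0.89 ± 0.25), gst-38 (0.96 ± 0.29) and gpx-1 (0.61 ± 0.21), all log2 fold changes ± SE. Their limma adjusted p ran from 1.87e-06 for gst-5 to 0.0494 for gpx-1. The 7 were 2 in a fit of the 2 groups alone, 4 on reads over the size factor and 4 without 2 g/L replicate 1. gst-43 was the gene that was lower (-0.95 ± 0.21, limma adjusted p = 0.00290). From 1 to 2 g/L gst-8 rose (1.46 ± 0.17, limma adjusted p = 1.59e-08), where 0.136% of all genes were called higher. gst-5 had a log2 fold change of 0.76 ± 0.18 in that step and was not called (limma adjusted p = 0.0544). gst-29 differed by -0.89 ± 0.27 between 2 and 1 g/L (limma adjusted p = 0.507).

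Below 2 g/L the members lay near the controls. Over the 12 concentrations of 1 g/L and below, limma called 0 members in either direction, the smallest adjusted p was 0.728, and voom also called 0. Unadjusted p was under 0.05 in 21 of the 420 tests of a member at one concentration, with 0 to 3 per concentration. Of all genes, 2.86% to 6.58% had such a p at each of these concentrations. Of all genes the rule called 0.155% higher and 0.00972% lower at 1 g/L and 0.0194% higher at 0.5 g/L. In this range the log2 fold changes ran from -1.13 (gst-22 at 0.0125 mg/L) to 0.82 (gpx-7 at 31.3 mg/L), neither of them called. When 1 slope per gene was fitted over the rank of the concentration, from 0 for the control to 14 for 4 g/L, 9 members rose and 2 fell, where 3.8% and 2.77% of all genes did. The rising ones were gst-5, gst-8, gpx-1, gst-24, gst-6, gst-33, gst-10, gpx-3 and gst-38, and the falling ones gst-29 and gst-1. Without the 4 g/L libraries that slope was called in 2 rising members and no falling one. The 9 rising members were 4 on reads over the size factor, 5 over log10 concentration, 4 without any single 4 g/L replicate and 5 without 2 g/L replicate 4. The 2 falling ones were 1 without 4 g/L replicate 4 and 0 over log10 concentration.

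Levels are set beside each other between genes as scaled reads per kilobase of exon. That division holds only if reads cover whole transcripts, which was not checked, and the order of genes below depends on it. In the controls gst-1 was highest at 509 ± 23.6 reads per kilobase, followed by gst-10 at 337 ± 30.1 and gst-7 at 327 ± 68.2 (SD, n = 4 each), which overlapped each other. gsr-1 followed at 218 ± 25.2 and gst-26 at 175 ± 14.8, with overlapping ranges. gst-5 stood at 93.3 ± 28.4, gcs-1 at 19.9 ± 2.31, gst-38 at 2.22 ± 2.62 and gst-8 at 0 reads. At 4 g/L the order at the top had changed: gst-5 was highest at 569 ± 103, ahead of gst-10 at 447 ± 70.9, gst-7 at 407 ± 46.1 and gst-1 at 388 ± 32.4 reads per kilobase, and neighbours in this order overlapped. The reads of all transferases, summed and scaled for depth, came to 2146 to 2636 (median 2305) in the 4 g/L libraries and 1675 to 1851 (median 1741) in the controls, with no overlap. A library at 31.3 mg/L, where no member was called, also reached 2181, above the lowest 4 g/L library. gst-5 made up 15.2% to 20.3% of that sum at 4 g/L, 8.25% to 10.8% at 2 g/L, 4.70% to 6.61% at 1 g/L and 2.47% to 4.98% in the controls. The summed peroxidases came to 224 to 367 scaled reads at 4 g/L and 161 to 237 in the controls, and the 3 genes of synthesis and recycling to 367 to 419 at 4 g/L and 425 to 562 in the controls. The synthesis and recycling sum also went as low as 396 at 125 mg/L, 411 at 15.6 mg/L and 414 at 31.3 mg/L, within the 4 g/L range.

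Many of these genes lie side by side, and neighbours were not always called alike. With members within 20 kb counted as neighbours, 15 of the 35 have one, in 5 groups. On chromosome II, gst-6, gst-7, gst-8 and the unmeasured gst-9 span 13.7 kb on 1 strand. gst-6 and gst-8 rose at 4 g/L there, and gst-7, which lies between them and ends 353 bases before gst-8, had a log2 fold change of 0.33 ± 0.14 that was not called. In a second group on chromosome II, of 9 genes over 22.7 kb and 3 measured, gst-24 rose and gst-20 (0.29 ± 0.21) and gst-16 (-0.40 ± 0.28) were not called. In the next, of 9 genes over 21.6 kb and 6 measured, gst-26 and gst-28 rose, gst-29, which lies 960 bases from gst-28, fell, and gst-39, gst-34 and gst-35 were not called. On chromosome X gpx-5 and gpx-3 lie 1597 bases apart and both rose.

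The difference between neighbours was tested as the difference of their log2(value + 1) within each well, for 9 adjacent measured pairs. The pair gst-7 and gst-8 was left out because gst-8 had no control reads. This test was chosen after the values had been seen. The log2 ratio of gst-28 to gst-29 averaged 3.81 ± 0.90 at 4 g/L and 1.67 ± 0.41 in the controls (SD, n = 4 each), and that of gst-6 to gst-7 averaged -1.47 ± 0.29 at 4 g/L and -3.06 ± 0.70 in the controls. The ratio of gst-24 to gst-16 averaged 2.45 ± 0.79 at 4 g/L and 0.79 ± 0.03 in the controls. Each of these 3 pairs separated the groups completely, with a two-sided exact permutation p = 0.0286, the smallest that 4 against 4 wells allow. Adjusted over the 9 pairs each was 0.0857, so none passed 0.05. The pair gpx-5 and gpx-3 differed by -0.58 between 4 g/L and the controls (exact permutation p = 0.200).

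**Figure D5:**
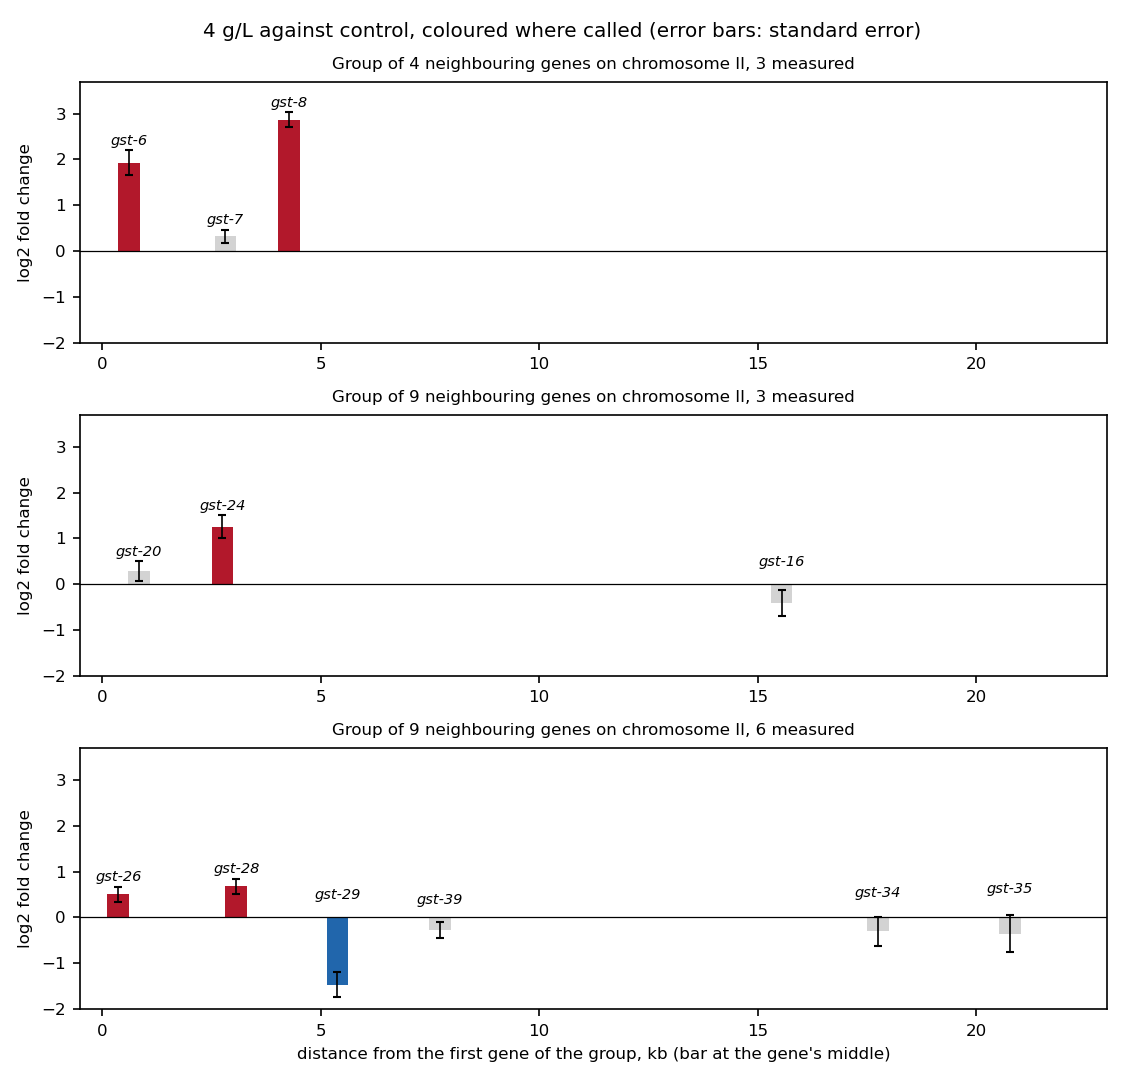
Log2 fold change at 4 g/L against the control, with its standard error, of the measured genes in 3 groups of neighbouring gst genes on chromosome II, at their distance in kb from the first gene of the group. Red bars rose, blue fell and grey were not called: gst-7 (0.33) stands between gst-6 (1.92) and gst-8 (2.86), and gst-29 (-1.46) beside gst-28 (0.68).

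Sharing of reads limits some of these values. The sources used here do not say whether reads were counted by strand, so reads of a gene and of another that overlaps its exons cannot be told apart. gst-5 overlaps nos-1 on the opposite strand, and nos-1 averaged 55.2 ± 19.6 at 4 g/L and 75.7 ± 5.46 in the controls (SD, n = 4 each). gpx-1 overlaps drsh-1, which averaged 62.6 ± 9.96 at 4 g/L and 68.4 ± 22.4 in the controls. gsto-1 overlaps kle-2, at 72.6 ± 5.01 at 4 g/L and 86.1 ± 21.6 in the controls, and gsr-1 overlaps C46F11.5, at 38.0 ± 5.40 at 4 g/L and 40.9 ± 11.1 in the controls. The means of these 4 partners were lower at 4 g/L than in the controls, while gst-5, gpx-1 and gsto-1 rose and gsr-1 fell. The part of shared reads in these calls was not tested. Of the partners of members that were not called, elo-3, on the strand opposite gstk-2, averaged 56.8 ± 8.36 at 4 g/L and 43.7 ± 5.76 in the controls, and scav-5, opposite gst-36, averaged 9.46 ± 3.86 at 4 g/L and 11.4 ± 2.61 in the controls. gst-4 overlaps dhs-12 on its own strand, which averaged 93.6 ± 18.6 at 4 g/L and 135 ± 18.0 in the controls. Reads shared between near-identical members of the gst family could not be checked, since no sequences were used here.

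The other genes of the pathway were counted from 5 lists. None of them was called at 2 g/L, where the rule called 0.311% of all genes higher and 0.175% lower. At 4 g/L the share of all genes called in either direction was 28.5%. Of 8 genes of cysteine supply 3 rose and none fell (median log2 fold change 0.52). These were cbs-2, a cystathionine beta-synthase (27.7 ± 16.8 at 4 g/L and 8.80 ± 5.95 in the controls, log2 fold change 1.56 ± 0.45, limma adjusted p = 0.00808), cysl-1, a cysteine synthase relative that acts in hydrogen sulfide sensing (0.72 ± 0.17), and cdo-1, the cysteine dioxygenase that breaks cysteine down (0.71 ± 0.23). Of 8 genes of NADPH supply idh-1, the cytosolic isocitrate dehydrogenase, rose by 0.51 ± 0.14 on the log2 scale and T25B9.9, the 6-phosphogluconate dehydrogenase, fell by 0.42 ± 0.11 (median -0.03). Of 11 measured thioredoxin and glutaredoxin genes none rose and 4 fell, with log2 fold changes of -0.36 ± 0.11 for glrx-3, -0.39 ± 0.14 for glrx-5, -0.36 ± 0.13 for glrx-21 and -0.45 ± 0.13 for txl-1 (median -0.22). The call of glrx-21 was lost with the term for sets (limma adjusted p = 0.0936). Of 11 genes of conjugate export and other glutathione use, the transporters mrp-3 (0.68 ± 0.23) and mrp-6 (0.75 ± 0.26) rose and mrp-4 (-0.84 ± 0.23) fell (median -0.10). None of the 7 measured regulators was called: skn-1 averaged 82.9 ± 11.4 at 4 g/L and 86.4 ± 9.73 in the controls (SD, n = 4 each).

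Markers of tissues and of the germ line were also called at 4 g/L, where 14.7% of all genes were called higher and 13.7% lower. The counts for neurons and sperm lie near those shares in the main fit. In RNA of whole worms, fewer cells of a type and less RNA per cell cannot be told apart. Of 10 intestinal markers 5 rose and 1 fell, and their summed value was 9009 to 11411 at 4 g/L and 6760 to 9522 in the controls. Of 4 measured pharynx markers 3 rose, with a summed value of 307 to 477 at 4 g/L and 192 to 310.4 in the controls. Of 5 measured hypodermis markers 3 rose, with 6201 to 8153 at 4 g/L and 6072 to 7652 in the controls. The pharynx markers phat-1, phat-3 and phat-5 and the hypodermis markers dpy-7 and wrt-2 have no row. Of 5 body wall muscle markers 2 rose (summed value 3137 to 4596 at 4 g/L and 2146 to 3277 in the controls), of 5 neuronal markers 1 rose (182 to 230.2 at 4 g/L and 181 to 234 in the controls), and of 8 sperm markers 1 rose (2084 to 3769 at 4 g/L and 1051 to 2989 in the controls). In these 5 lists none fell. Of 8 oocyte and eggshell markers 4 fell and none rose, with a summed value of 2592 to 3692 at 4 g/L and 4046 to 5314 in the controls. Of 6 yolk genes 4 fell and none rose, with 13675 to 25299 at 4 g/L and 25329 to 42359 in the controls. No marker was called at 2 g/L, where 0.311% of all genes were called higher and 0.175% lower. With the term for sets, the counts at 4 g/L were 6 higher and 1 lower for intestine, 2 higher for pharynx, 3 for hypodermis, 4 for body wall muscle, 1 for neurons and 4 for sperm, and 7 lower for oocyte and eggshell and 6 for yolk. The share of all genes called with that term is not given here, so these counts have no background beside them. With that term the intestinal marker act-5 was also called at 2 g/L (limma adjusted p = 0.0191). The part of these shifts in the glutathione results was not tested.

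Libraries were also grouped into sets of 12 consecutive sample numbers, with the numbers taken from the titles. The labels do not define such sets, and no difference between them is shown here. 3 of these sets hold both 4 g/L and control libraries. With a term for the sets, fitted on reads over the size factor, 12 members rose and 5 fell at 4 g/L, gst-10 being added to the rising ones. The shares of all genes given above belong to the main fit, and none is given for this one. Each of the 3 sets holds 1 library at 4 g/L and 1 control, so each value within a set compares a single pair and has no spread. The difference in log2(scaled reads + 1) between the 4 g/L library and the control was positive in each for gst-5 (2.16 to 3.40), gst-8 (4.40 to 4.73), gst-6 (1.60 to 2.46), gst-24 (0.73 to 2.05), gst-38 (0.47 to 3.18), gpx-1 (0.76 to 1.21), gpx-3 (0.94 to 1.52), gst-28 (0.27 at the lowest), gst-26 (0.41 to 0.62) and gsto-1 (0.05 to 1.93). It was negative in each for gst-29 (-3.87 to -0.04), gst-43 (-1.48 to -0.20), gst-1 (-0.53 to -0.33) and gsr-1 (-0.40 to -0.04). For gpx-5 it ran from -0.09 to 1.58 and was positive in 2 of 3 sets, and for gss-1 it ran from -0.76 to 0.02 and was negative in the other 2. Agreement in sign was not confined to members called in the main fit. Of those not called, gst-7 (0.02 to 0.71) and gst-10 (0.23 to 0.53) were positive in each set. gst-4 (-0.25 to -0.02) and gcs-1 (-0.51 to -0.04) were negative in each, and gst-33 was mixed (-0.03 to 1.61).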

How the data were processed

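Poly(A) RNA of whole worms was sequenced at shallow depth, per the labels' protocols. The authors deposited 1 table of normalised signal, linear and not logged, for each gene and library. Tools named in the submitters' processing notes, with no role or order, are STAR 2.7.10a, HTSeq 2.0.1, UMI-tools 1.1.2, edgeR 3.36.0 and Trimmomatic 0.39, and the build is WBcel235. From the values, each was made as 1 + factor × (1 + scaled reads). The factor belongs to a gene and a replicate number (0.445 to 3.18), and reads of 0 are held as 0.5. Whole reads were recovered for 100% of 617880 values within 0.0001 reads, and 1.07% were reads of 0. The lowest dispersion over 90 replicate pairs was 1.58 times sampling noise, so all libraries were counted singly.

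Values were tested as log2(value + 1) in limma 3.58.1 (R 4.3.3) with an intensity trend and 15 group means in 1 fit. Tests were two-sided, with Benjamini-Hochberg adjustment over the 10293 genes and a threshold of 0.05. This scale understates the change of genes of few reads. The test for whole counts named in the plan was not used, since the deposited values are not counts. Scaled reads are reads over the size factor of the library. Counting intervals and the floor of 3 reads cover counting error only. The recovery and the fit were tested on simulated data. Identifiers were matched to symbols through a RefSeq gene list, which held 10294 of them. Positions, strands and exon lengths came from the Ensembl annotation of WBcel235. Python 3.11.15 with pandas 2.3.3, scipy 1.17.1 and matplotlib 3.10.9 made tables and figures.

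The groups came from the sample titles. Named members are those called at 4 g/L, those called at a lower concentration or in the trend with a log2 fold change of at least 0.5 at 4 g/L, gcs-1, gss-1, gsr-1, gst-4 and the 3 of highest level in the controls. The members and the lists were chosen with earlier results of these data known. The test of neighbouring genes was chosen after seeing the data. Promoter motifs and protein identity, planned at first, were not analysed here. Other pseudocounts, filters, scalings, 2-group fits, a replicate block, fits on the recovered reads with and without the term for sets (limma and voom), and fits without single libraries were tried.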

Additional observations from a re-analysis of the deposited data

Results flagged for a closer look

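The named members were checked for single libraries far from the others of their group at 4 g/L, at 2 g/L and in the controls, by Dixon's ratio of the gap to the range. Of 63 groups of 4 libraries, 4 held such a library, and chance alone flags about 1 group in 20. 3 of the 4 are the same library, replicate 4 at 4 g/L, the deepest of its group. There gst-26 had a value of 200.8, against 165 to 168 in the other 3, and gst-28 had 195, against 141 to 145. In the same library gst-1 had 252, against 303 to 312 in the other 3. The fourth is gst-7 in replicate 3 at 2 g/L, at 199 against 245 to 251 in the other 3. Without replicate 4 at 4 g/L, gst-26 was no longer called at 4 g/L, with a log2 fold change of 0.44 (limma adjusted p = 0.0782).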

How the results depend on the processing

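Across the alternatives, none of which reversed a called change, 805 of the results for named members kept their side of the threshold, 20 lost it and 11 gained it. At 4 g/L the count of rising members was 9 to 13 without single libraries, and that of falling members 3 to 6, lowest without 4 g/L replicate 4. Falling members at 4 g/L numbered 2 in a fit of the 2 groups alone and 3 with voom. At 2 g/L the 1 falling member was 0 to 1 without single libraries. In the step from 2 to 4 g/L the 7 rising members were 2 in the fit of 2 groups alone, 4 on reads over the size factor, and 4 to 8 without single libraries, lowest without 2 g/L replicate 1. The 1 falling member there was 2 with quantile normalisation, 0 in the fit of 2 groups and 0 with voom, and 1 to 2 without single libraries. In the step from 1 to 2 g/L the 1 rising member was 2 with a pseudocount of 5, 0 in the fit of 2 groups, 2 with voom and 2 with voom and the term for sets, and 1 to 2 without single libraries. In the trend the 9 rising members were 4 on reads over the size factor, 2 without 4 g/L, 5 over log10 concentration of the exposed groups and 4 to 9 without single libraries. The 2 falling ones were 0 without 4 g/L, 0 over log10 concentration and 1 to 2 without single libraries. The cause of these shifts was not tested. Fits of 2 groups have fewer samples.

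Same-numbered replicates did not deviate together. On deposited values the correlations of their deviations between 4, 2 or 1 g/L and the controls were -0.006 to -0.415. These values already carry a factor per gene and replicate number, so they cannot show whether the numbers mark a pairing. On reads over the size factor, which lack that factor, the correlations were -0.033 to -0.213, and no pairing was seen there. With a replicate block 11 members rose and 5 fell at 4 g/L, as without it, and 8 rose in the trend. All groups hold the same replicate numbers, so the block cannot move the fold changes at 4 g/L. It was fitted on the deposited values, which already carry that factor, so the equal counts are no check on replicate effects. No alternative called a member at 1 g/L or below. Depth limits gst-8, gst-38, gst-33 and the other genes of few reads most.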
